A study of Mus musculus with 12 samples.

Results

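Keratin genes were followed in prostates of F1 and F3 male mice from a line founded by females given chlordecone in pregnancy, and in control males. The keratins are those rows of the F1 and F3 count tables named Krt with a number and at most 1 letter, kept where 10 or more reads were counted in at least 2 libraries of either table. Of 28075 different genes in the tables, 43 carried such a name and 31 were kept. They comprise 6 simple keratins (Krt7, Krt8, Krt18, Krt19, Krt20 and Krt23), 4 basal keratins (Krt5, Krt14, Krt15 and Krt17), 9 squamous keratins (Krt1, Krt2, Krt4, Krt6a, Krt10, Krt24, Krt77, Krt78 and Krt79), 9 keratins of hair and root sheath (Krt26, Krt27, Krt32, Krt34, Krt35, Krt39, Krt73, Krt75 and Krt86) and 3 others (Krt80, Krt88 and Krt222). All 31 met the count rule in F1 and were tested there, while 17 met it in F3 and were tested there. The 12 keratin names outside the rule were Krt12, Krt13, Krt16, Krt25, Krt28, Krt31, Krt33a, Krt33b, Krt36, Krt74, Krt76 and Krt87. Just inside the rule, Krt75 had 0, 0 and 21 reads in F1 chlordecone libraries and 3 and 17 reads in F1 controls. Just outside it, Krt36 had 10 or more reads in 1 library only.

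The groups are F1 chlordecone (3 libraries), F1 control (2 libraries), F3 chlordecone (3 libraries) and F3 control (3 libraries). Chlordecone, also called kepone, is an organochlorine insecticide. Pregnant F0 females of the exposed line were given 100 µg/kg/day during gestation (E6.5-E15.5), and their descendants were bred on, so that F1 males were exposed in the womb and F3 males descend from exposed animals. The labels list 12 samples, and F1 control 3 was not analysed here. The labels name no strain, age, prostate lobe, vehicle, litter or pooling of animals. The p-values therefore measure only how these samples spread. In bulk tissue, fewer cells of a type and less RNA per cell cannot be told apart.

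Keratins are the intermediate filament proteins of epithelial cells. An acidic type I keratin pairs with a neutral or basic type II keratin, and neither builds a filament alone, so the genes are used in pairs that differ between epithelia. In the prostate, luminal secretory cells contain Krt8 and Krt18, and the basal cells beneath them contain Krt5 and Krt14. Stratified squamous epithelia replace the basal pair with Krt1 and Krt10 in skin or Krt4 and Krt13 in inner linings, and hair keratins belong to the hair shaft and its sheath. Of the genes kept, 16 encode type I and 15 encode type II proteins. In GENCODE M21 on GRCm38, all 15 type II genes lie on chromosome 15, and 15 of the type I genes lie on chromosome 11. Krt18, the remaining type I gene, lies on chromosome 15 from 102028180 to 102032027, beside its type II partner Krt8 at 101996698 to 102004482.

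The 250 bases before the transcription start are shown for 3 keratins with a low unadjusted p in F1, chosen after their values were seen (Krt5 of basal cells, Krt20 of the urothelial surface, Krt32 of hair), and for Krt10, whose F1 log2 fold change was nearest to 0 among the squamous keratins. The sequences are those of RefSeq on GRCm38.p6, minus strand, 5′ to 3′, ending at the base before the start. Capitals mark matches to TATAAA or ATAAAA on either strand, the letters of the TATA box and a variant of it, which overlap where they adjoin.
Krt5, chr15:101712906-101713155: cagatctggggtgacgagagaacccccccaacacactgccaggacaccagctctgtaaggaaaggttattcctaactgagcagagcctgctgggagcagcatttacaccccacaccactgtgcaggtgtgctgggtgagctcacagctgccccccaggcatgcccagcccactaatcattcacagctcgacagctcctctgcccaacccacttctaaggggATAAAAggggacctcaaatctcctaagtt
Krt20, chr11:99438154-99438403: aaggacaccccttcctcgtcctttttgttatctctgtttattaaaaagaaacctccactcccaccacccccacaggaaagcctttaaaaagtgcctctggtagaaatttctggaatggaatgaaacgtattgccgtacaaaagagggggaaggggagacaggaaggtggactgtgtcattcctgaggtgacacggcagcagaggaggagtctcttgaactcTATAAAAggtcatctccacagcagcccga
Krt32, chr11:100088270-100088519: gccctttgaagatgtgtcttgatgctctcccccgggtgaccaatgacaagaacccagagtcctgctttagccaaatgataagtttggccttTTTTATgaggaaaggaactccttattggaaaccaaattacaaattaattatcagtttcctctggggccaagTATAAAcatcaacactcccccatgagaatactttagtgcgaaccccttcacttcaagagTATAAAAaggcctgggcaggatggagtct
Krt10, chr11:99389365-99389614: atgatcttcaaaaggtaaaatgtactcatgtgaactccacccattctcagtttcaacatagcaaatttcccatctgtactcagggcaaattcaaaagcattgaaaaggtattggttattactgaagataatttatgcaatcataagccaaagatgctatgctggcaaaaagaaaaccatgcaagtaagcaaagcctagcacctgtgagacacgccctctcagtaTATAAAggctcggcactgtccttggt
All of these genes had a match with its first base 26 to 29 bases before the start, in Krt5 the variant alone. Of the 31 keratins, 20 had a RefSeq promoter entry. TATAAA occurred in 7 of these 20 windows and in 12.4% of all 32851 windows of the same length, and ATAAAA occurred in 11 of the 20 and in 17% of all. TGANTCA, the AP-1 motif, occurred in 0 of the 20 windows and in 6.75% of all. The AP-2 motif, GCC and GGC with 3 or 4 bases between them, occurred in 2 of the 20 windows in either form, against 13.7% of all windows with 3 bases and 12.3% with 4, and the GC box GGGCGG occurred in 2 against 32.7%. All motifs were searched on both strands. The RefSeq starts of Krt14, Krt7 and Krt8 lie over 100 bases inside the GENCODE gene, so their windows may not be the promoters. In the 17 other windows TATAAA occurred in 7, ATAAAA in 10, TGANTCA in 0, the AP-2 motif in 1 and 2 with 3 and 4 bases, and the GC box in 1.

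Total counts were 17228539 to 28061760 in F1 libraries and 71672418 to 114762135 in F3 libraries. The F1 libraries differed in marker transcripts of several tissues, and whether their tissue make-up differed was not tested. Summed transcripts of the vas deferens and epididymis list, which are mostly Akr1b7 and Crisp1, came to 44290, 105 and 13929 CPM (counts scaled to library size) in F1 chlordecone 1, 2 and 3, against 25.2 and 26.2 CPM in the controls. Seminal vesicle secretion transcripts summed to 187106 to 528818 CPM in F1 chlordecone libraries, against 118645 to 121227 CPM in F1 controls. The members of that list went both ways, with 5 positive and 3 negative log2 fold changes of 8 tested. Their median log2 ratio to the control mean was -0.62, 1.34 and -2.72 in F1 chlordecone 1, 2 and 3. Prostate products, such as Pbsn, Tgm4 and 9530053A07Rik, were abundant in every library, at 74383 to 117435 CPM in F1 chlordecone libraries against 152878 to 162345 CPM in F1 controls. In F3 they summed to 212813 to 262852 CPM in chlordecone libraries and 211479 to 265769 CPM in controls, with at most 71.1 CPM of seminal vesicle and at most 0.36 CPM of vas deferens and epididymis transcripts in any library. The F1 controls differed from each other less than any other pair, with a chi-square per gene of 16.6 against 266 to 599 among other F1 pairs. The labels do not say whether they came from separate animals, and the F1 tests treat them as 2 replicates. F1 chlordecone 2 stood apart from the other chlordecone libraries in many keratins below.

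Per kilobase of transcript, keratin transcripts of the F3 prostates were mainly Krt18, Krt19 and Krt8. Their mean levels were 546, 282 and 243 CPM per kb in F3 chlordecone libraries, against 591, 335 and 244 CPM per kb in F3 controls. Krt15, Krt23, Krt5 and Krt14 followed, at 62.2, 42.5, 27.1 and 15.2 CPM per kb in F3 chlordecone libraries and 40.2, 47.8, 19.6 and 13.1 CPM per kb in F3 controls. Krt15 thus stood above Krt23 in F3 chlordecone libraries and below it in F3 controls. Each of the remaining genes averaged under 2 CPM per kb in both F3 groups.

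In F1 chlordecone libraries Krt18, Krt8 and Krt19 averaged 146, 139 and 120 CPM per kb, a spread smaller than the differences between the libraries, and Krt15 followed at 25.9 CPM per kb. In F1 controls the same genes stood at 159, 70.5, 35.5 and 15 CPM per kb. Krt8 and Krt18 together made 51.6%, 61.1% and 74.6% of keratin transcripts per kilobase in F1 chlordecone 1, 2 and 3, against 76.4% and 71.5% in the F1 controls. In F3 they made 66.2%, 63.2% and 63.8% in chlordecone libraries, against 66.6%, 62.6% and 63.8% in controls. The lower share in F1 chlordecone 1 accompanied a Krt19 level above that of every other F1 library.

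**Figure D1:**
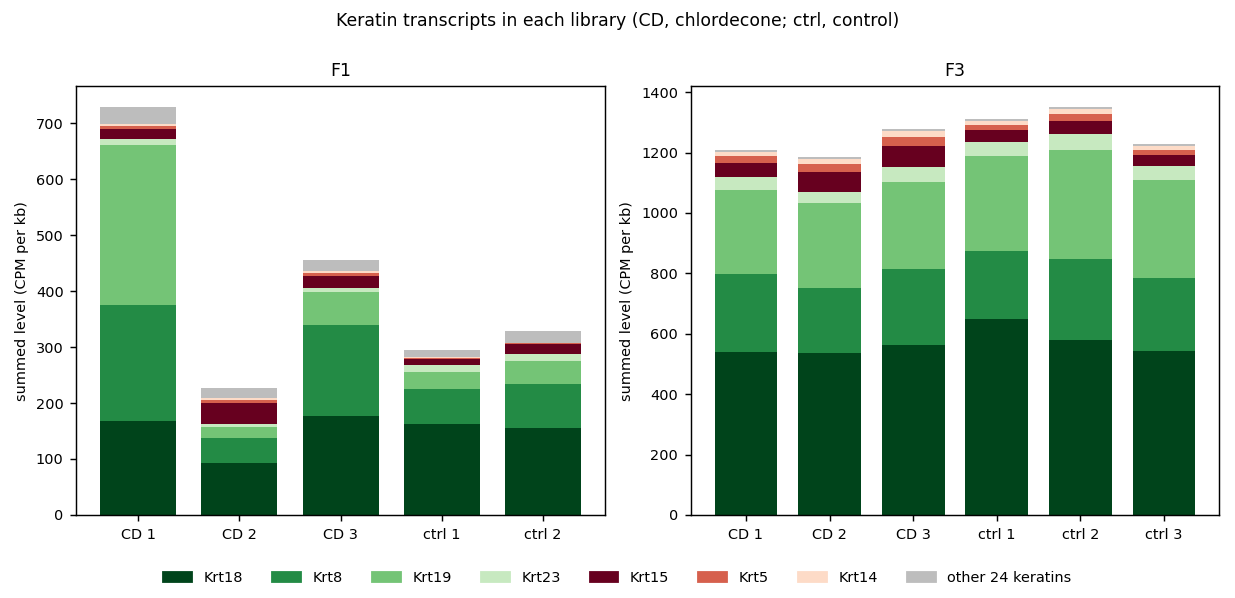
Stacked bars give the summed keratin level of each library in CPM per kilobase of transcript, split by gene (CD, chlordecone; ctrl, control; the panels have separate axes). The F1 chlordecone libraries run from 226 to 730 CPM per kb around the F1 controls at 294 and 328, while F3 chlordecone libraries at 1187 to 1279 lie close to F3 controls at 1230 to 1351.

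Chlordecone was set against control within each generation by the quasi-likelihood test of edgeR, with p adjusted over all genes tested (Benjamini-Hochberg). In F1, 0 of 31 keratins passed an adjusted p of 0.05, where 5 of 17804 genes did (0.0281%). At an unadjusted p under 0.05 there were 7 keratins, Krt7, Krt20, Krt5, Krt14, Krt4 and Krt32 above the controls and Krt26 below them, against 11.5% of all genes. The 6 above the controls compare with 7.93% of all genes. Krt20 and Krt32 met the count rule only through F1 chlordecone libraries, and Krt26 only through F1 controls. Their direction thus followed from how they were kept. The DESeq2 Wald test on the same counts called 5 of 31 in F1, all higher, namely Krt32, Krt7, Krt4, Krt14 and Krt5, against 3.89% of all genes in either direction and 2.99% higher. The authors' deposited table likewise lists 5 of 31 keratins at an adjusted p under 0.05 in F1, the same genes, the lowest being Krt32 at 0.000362.

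The groups did not overlap in F1 in 12 of 31 keratins, against 31.3% of all genes. In 7 of the 12 the chlordecone libraries lay above the controls (16.2% of all genes) and in 5 below (15.1%). Those above include Krt20 and Krt32, kept through F1 chlordecone libraries. Those below include Krt26, Krt27 and Krt86, kept through F1 controls. These counts and the class medians thus partly reflect the count rule. The median log2 fold change was 1.37 over the 6 simple, 1.25 over the 4 basal, -0.10 over the 9 squamous and -1.04 over the 9 hair keratins, beside 0.02 over all genes tested. Over all 31 keratins it was 0.02, with 16 above 0 and 15 below, and 51.4% of all genes were above 0.

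In F3, 0 of 17 keratins passed, where 10 of 16766 genes did (0.0596%). At an unadjusted p under 0.05 there were 2, Krt15 and Krt5, both higher, against 10.6% of all genes in either direction and 4.97% higher. DESeq2 called 0 of 27 keratins in F3 against 1.28% of all genes, and the authors' deposited table lists none of 27, its lowest adjusted p being 0.122 for Krt15. The groups did not overlap in 2 of 17, Krt15 above and Krt19 below the controls, against 16.6% of all genes (8.34% above and 8.25% below). The median log2 fold change in F3 was -0.16 over 5 simple, 0.34 over 4 basal and -0.29 over 6 squamous keratins, beside -0.01 over all genes tested. Of the 17 keratins 6 had values above 0, against 48.8% of all genes.

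**Figure D2:**
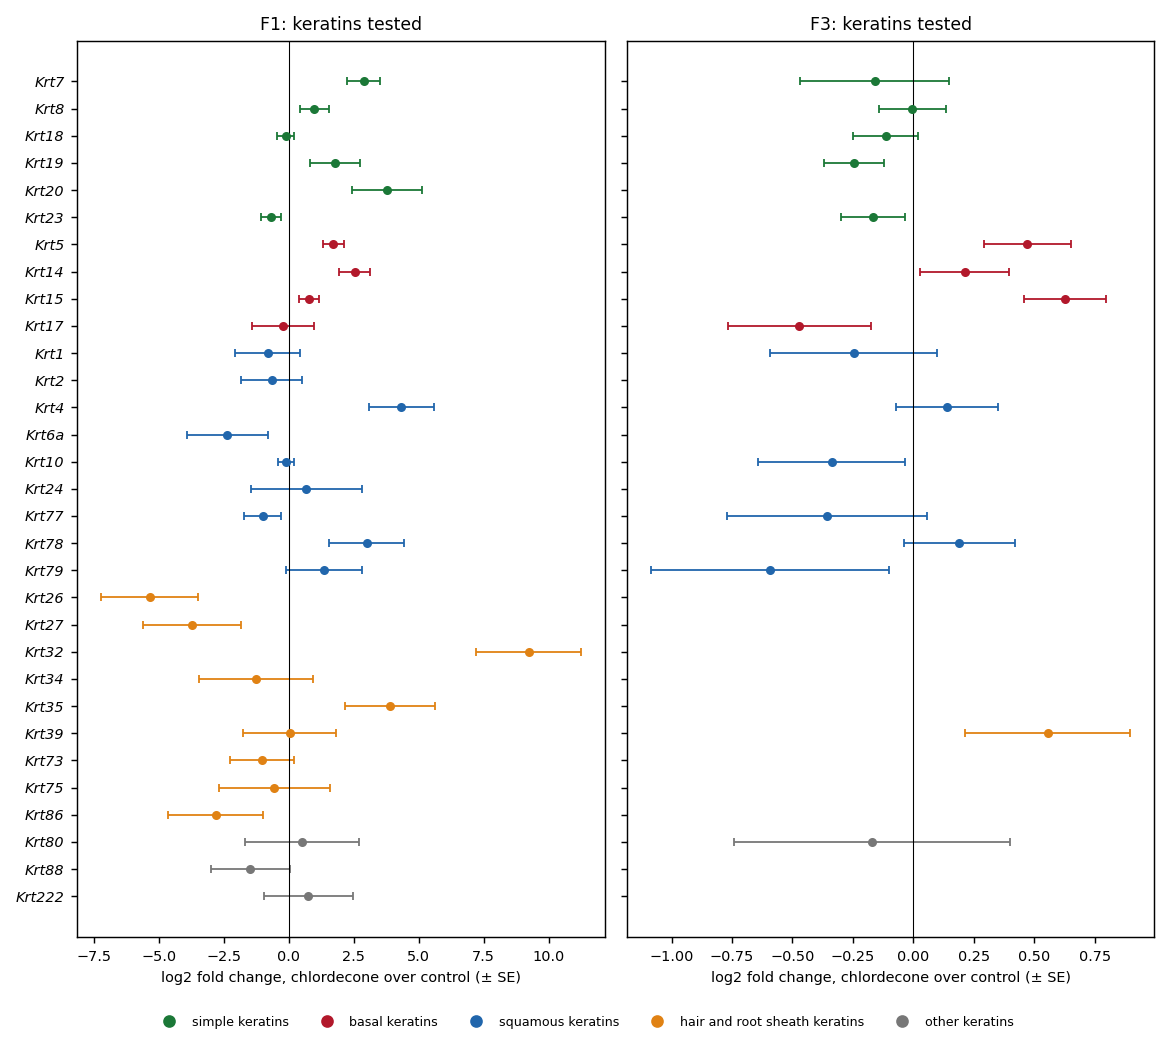
Points give the log2 fold change of each tested keratin, chlordecone over control, with bars of 1 SE from edgeR, coloured by keratin class (the panels have separate axes). The F1 values run from -5.37 for Krt26 to 9.23 for Krt32, a fitted value against controls without a read that is no measure of size, and F3 values run from -0.59 for Krt79 to 0.63 for Krt15.

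Of the simple keratins of luminal and ductal epithelium, Krt8, Krt18 and Krt19 overlapped between the F1 groups. Krt8, the type II keratin of luminal cells, had 407, 89.3 and 321 CPM in F1 chlordecone 1, 2 and 3, against 123 and 154 CPM in controls. Chlordecone 1 and 3 lay above both controls and chlordecone 2 below them, and the log2 fold change was 0.98 (SE 0.57, adjusted p = 0.576). Krt18, its type I partner, had 242, 133 and 254 CPM against 233 and 224 CPM in controls, with only chlordecone 2 low (log2 fold change -0.13, SE 0.34, adjusted p = 0.931). Krt8 lies over the gene model Gm36026 on the other strand and has an annotated pseudogene, so its reads are uncertain to that extent.

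Krt19, a tailless type I keratin of ducts and glands, had 448, 30.4 and 90.7 CPM in F1 chlordecone 1, 2 and 3, against 48.8 and 63.0 CPM in controls. Chlordecone 2 was the lowest F1 library and the groups overlapped, and the log2 fold change was 1.76 (SE 0.96, adjusted p = 0.541). Without chlordecone 1 it was 0.11 (adjusted p = 0.994). Krt8 and Krt19 were highest in chlordecone 1, the library with the highest vas deferens and epididymis sum, and lowest in chlordecone 2, the chlordecone library with the lowest. The part of that tissue in these values was not tested.

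Krt7, a type II keratin of ducts and urothelium, had 22.0, 5.73 and 12.1 CPM in F1 chlordecone libraries, against 2.1 and 1.5 CPM in controls. All 3 chlordecone libraries lay above both controls (log2 fold change 2.88, SE 0.63, unadjusted p = 0.00187, adjusted p = 0.196). Krt20, found in umbrella cells of the urothelium and in gut epithelium, had 5.11, 0.709 and 1.75 CPM against 0.314 and 0.0469 CPM in controls, the control values resting on 6 reads and 1 read. The groups did not overlap (log2 fold change 3.78, SE 1.35, adjusted p = 0.348), and leaving out 1 library gave 2.73 to 5.6. Krt7 lies over the gene model Gm671 on the other strand.

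Krt23, a type I keratin of glandular epithelia, lay the other way in F1, with 17, 7.31 and 11.8 CPM in chlordecone libraries and 18 and 20.7 CPM in controls. All 3 chlordecone libraries were below both controls (log2 fold change -0.69, SE 0.38, adjusted p = 0.548). Chlordecone 1 and control 1 were close together at this end of the range. Simple keratins together made 93.1%, 72.5% and 89.7% of keratin transcripts per kilobase in F1 chlordecone 1, 2 and 3, against 91.1% and 87.8% in controls.

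Of 8 urothelial markers other than keratins tested in F1, 5 had positive and 3 negative log2 fold changes. Over the 8 markers the summed level was 105, 25.0 and 88.9 CPM in F1 chlordecone 1, 2 and 3, against 34.8 and 26.0 CPM in controls. Psca had 34.6, 5.34 and 15.7 CPM in chlordecone libraries against 0.314 and 0.422 CPM in controls (adjusted p = 0.127), and Upk1a, a uroplakin of the bladder surface, had 13, 2.51 and 13.2 CPM against 1.73 and 0.656 CPM (adjusted p = 0.25). Upk1b overlapped between groups, at 20.4, 9.27 and 23.2 CPM against 23.4 and 18.1 CPM. Pparg, a nuclear receptor of urothelium, was low in chlordecone 1 and 3, at 1.27, 4.31 and 1.24 CPM against 4.51 and 3.66 CPM, and Upk3bl had negative values too. None of the 8 passed the threshold in F1, none was at 0 in the chlordecone group, and their part in the keratin values was not tested.

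In F3 all 5 simple keratins tested had log2 fold changes between -0.25 and -0.0043. Krt8 had 511, 423 and 492 CPM in F3 chlordecone libraries, against 438, 522 and 471 CPM in controls (log2 fold change -0.0043, SE 0.14, adjusted p = 0.993). Krt18 had 773, 768 and 810 CPM against 932, 833 and 782 CPM in controls (log2 fold change -0.12, SE 0.13, adjusted p = 0.755). The groups overlapped in both genes.

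Krt19 had 435, 445 and 454 CPM in F3 chlordecone libraries, against 499, 570 and 512 CPM in controls. Every chlordecone library lay below every control, by a log2 fold change of -0.25 (SE 0.12, unadjusted p = 0.0784, adjusted p = 0.505). Krt23 had 68.2, 57.3 and 74.2 CPM against 70.2, 82.1 and 72.1 CPM in controls, and the groups overlapped (log2 fold change -0.17, SE 0.13, adjusted p = 0.636).

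Krt7 and Krt20, whose F1 groups did not overlap, overlapped between the F3 groups. Krt7 had 4.01, 4.52 and 5.04 CPM in F3 chlordecone libraries, against 2.81, 6.68 and 5.69 CPM in controls (log2 fold change -0.16, SE 0.31, adjusted p = 0.860). Krt20 had 5, 7 and 4 reads in F3 chlordecone libraries and 7, 5 and 2 reads in F3 controls, and was not tested there. The urothelial sum was 199 to 225 CPM in F3 chlordecone libraries against 115 to 160 CPM in controls. Of 6 urothelial markers tested in F3, 4 had positive log2 fold changes, and Upk1a alone passed the threshold at 14.6, 20.2 and 15 CPM against 3.52, 2.23 and 3.24 CPM (log2 fold change 2.46, SE 0.23, adjusted p = 0.0102).

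**Figure D3:**
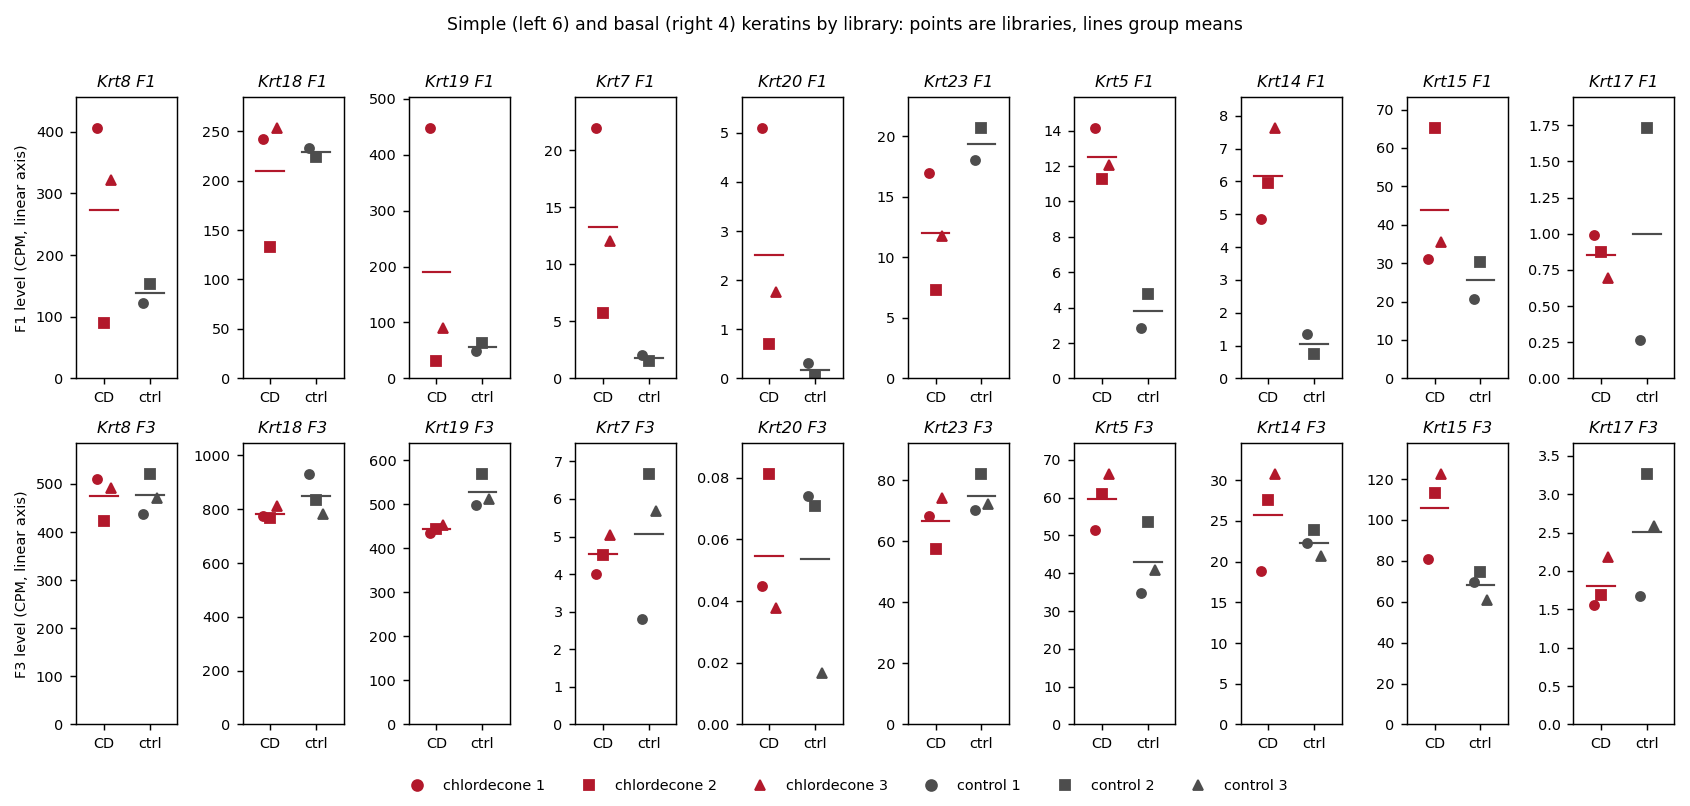
Each point is the level of a simple or basal keratin in 1 library, in CPM on a linear axis that differs between panels. F1 is the upper row and F3 the lower row, with chlordecone (CD) left of control (ctrl). In F1 the groups do not overlap for Krt7, Krt20, Krt23, Krt5, Krt14 and Krt15, and in F3 only for Krt15 and Krt19.

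The basal keratins Krt5, Krt14 and Krt15 lay above the controls in every F1 chlordecone library. Krt5, the type II keratin of basal cells, had 14.2, 11.3 and 12.1 CPM in F1 chlordecone libraries, against 2.83 and 4.78 CPM in controls. The chlordecone libraries were close together, and the log2 fold change was 1.71 (SE 0.40, unadjusted p = 0.00265, adjusted p = 0.202). Krt14, its type I partner, had 4.87, 5.94 and 7.64 CPM against 1.36 and 0.75 CPM in controls, from 123, 109 and 166 reads against 26 and 16 reads. The log2 fold change was 2.54 (SE 0.60, unadjusted p = 0.00295, adjusted p = 0.210). Krt5 lies over the gene model Gm44323 on the other strand, and Krt14 and Krt17 belong to a group of similar genes whose reads the counting could split.

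Krt15, a type I keratin of basal layers and follicle stem cells, had 31.0, 65.3 and 35.6 CPM in F1 chlordecone libraries, against 20.7 and 30.3 CPM in controls. The groups did not overlap, though chlordecone 1 and control 2 were nearly equal (log2 fold change 0.78, SE 0.38, adjusted p = 0.484). Krt17, a type I keratin of follicles and injured epithelium, had 0.990, 0.872 and 0.690 CPM against 0.262 and 1.73 CPM, and the controls enclosed the chlordecone values (log2 fold change -0.23, SE 1.19, adjusted p = 0.966). Of the 4 basal keratins in F1, 3 had positive log2 fold changes, with 0 past the threshold.

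Basal keratins made 3.86%, 21% and 6.87% of keratin transcripts per kilobase in F1 chlordecone 1, 2 and 3, against 4.91% and 6.57% in F1 controls. Chlordecone 2 had the highest share, and there Krt15 was at its highest and the summed simple keratins were at their lowest among F1 libraries. Of 11 basal-cell genes other than keratins tested in F1, 6 had positive and 5 negative log2 fold changes, with a median of 0.36 beside 0.02 over all genes, and the sum was 125 to 132 CPM in chlordecone libraries against 171 to 180 CPM in controls. Itga6, an integrin subunit of the basal surface, had 23.6, 29.8 and 39.8 CPM against 66.2 and 64.0 CPM (adjusted p = 0.235). Lama3, a laminin chain of the basement membrane, had 20, 21.9 and 18.3 CPM against 51.4 and 43.3 CPM (adjusted p = 0.170). Col17a1, a collagen of hemidesmosomes, lay the other way, at 5.15, 7.91 and 3.22 CPM against 3.14 and 1.69 CPM.

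In F3, Krt15 had the smallest p-value among the keratins. It had 81.1, 113 and 123 CPM in F3 chlordecone libraries, against 69.9, 74.6 and 60.7 CPM in controls. Every chlordecone library lay above every control, with a log2 fold change of 0.63 (SE 0.17, unadjusted p = 0.00567, adjusted p = 0.378). Krt5 had 51.5, 61.0 and 66.3 CPM against 34.8, 53.5 and 40.8 CPM, the lowest chlordecone library lying below the highest control (log2 fold change 0.47, SE 0.18, unadjusted p = 0.0287, adjusted p = 0.450).

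Krt14 had 18.9, 27.6 and 30.8 CPM in F3 chlordecone libraries, against 22.2, 23.9 and 20.7 CPM in controls. Chlordecone 1 was below all controls and the other two chlordecone libraries were above them (log2 fold change 0.21, SE 0.19, adjusted p = 0.671). Krt17 had 1.55, 1.68 and 2.18 CPM against 1.67, 3.27 and 2.59 CPM (log2 fold change -0.47, SE 0.30, adjusted p = 0.566). Basal keratins made 6.90%, 9.41% and 9.54% of F3 keratin transcripts per kilobase in chlordecone libraries, against 5.43%, 6.24% and 5.54% in controls, and these shares did not overlap.

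In F3 all 10 basal-cell genes other than keratins that were tested had positive log2 fold changes, where 48.8% of all genes did, with a median of 0.38 beside -0.01 over all genes. None passed the threshold, and 4 had an unadjusted p under 0.05, against 4.97% of all genes in that direction. Their sum was 490 to 513 CPM in F3 chlordecone libraries against 328 to 443 CPM in controls. Lama3 had 208, 227 and 188 CPM against 80.2, 107 and 184 CPM (log2 fold change 0.75, SE 0.27, adjusted p = 0.439). Trp63, which encodes the transcription factor p63 required for basal cells and is named here for that role after its values were seen, had 16.2, 19.1 and 18.0 CPM in F3 chlordecone libraries against 12.2, 11 and 15.2 CPM in controls (adjusted p = 0.419). In F1 it had 8.95, 6.65 and 8.10 CPM against 3.72 and 4.83 CPM (adjusted p = 0.466).

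**Figure D4:**
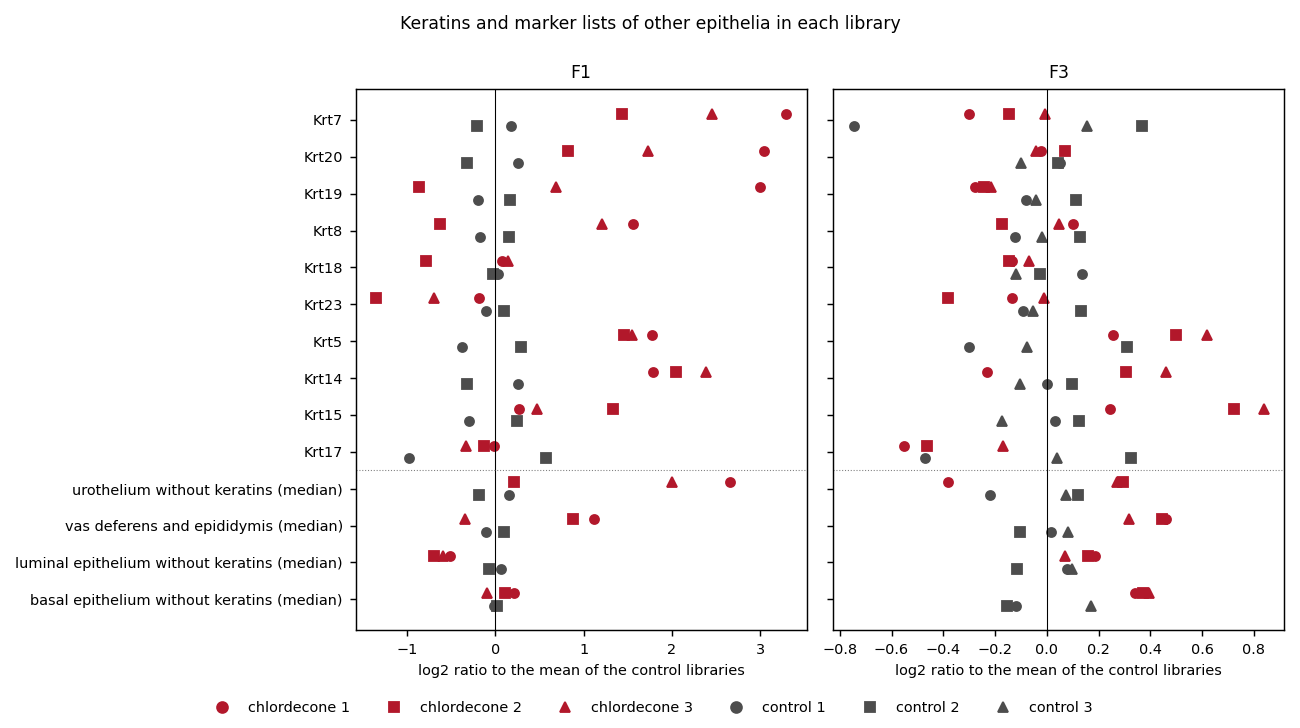
Each point is 1 library, plotted as its log2 ratio to the mean of the control libraries, for each simple and basal keratin and, below the dotted line, for the median over markers of another tissue or cell type, with chlordecone in red and control in grey (the panels have separate axes). The F1 chlordecone libraries lie right of both controls for Krt7, Krt20, Krt5, Krt14 and Krt15, while the urothelial markers lie at 2.66, 0.22 and 2.0 in F1 chlordecone 1, 2 and 3.

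The squamous keratins split gene by gene in F1, with 4 positive and 5 negative log2 fold changes. Krt4, a type II keratin of inner stratified linings that also marks proximal duct cells of the mouse prostate, had 7.25, 2.24 and 8.15 CPM in F1 chlordecone libraries, against 0 and 0.562 CPM in controls. All chlordecone libraries lay above both controls, from 183, 41 and 177 reads against 0 and 12 reads (log2 fold change 4.33, SE 1.26, unadjusted p = 0.00885, adjusted p = 0.265). Krt13, the usual partner of Krt4, had no row in the F1 table and fewer than 10 reads in every F3 library. Without control 2 the log2 fold change was 9.96, and without control 1 it was 3.38. Krt78, a type II keratin, had 4.91, 0.327 and 2.30 CPM against 0.0524 and 0.562 CPM, with chlordecone 2 inside the control range (log2 fold change 3.00, SE 1.44, adjusted p = 0.474). Leaving out 1 library gave 2.07 to 5.45.

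Krt10, the type I keratin of the upper epidermis, lay within the F1 control range or near it, at 11.7, 9.54 and 12.6 CPM in chlordecone libraries and 11.2 and 13 CPM in controls (log2 fold change -0.10, SE 0.31, adjusted p = 0.939). Krt77, a type II keratin, had 1.23, 1.42 and 1.33 CPM against 2.57 and 2.76 CPM. Its chlordecone libraries were all lower, but on 26 to 31 reads each the log2 fold change of -1.0 had an SE of 0.71 (adjusted p = 0.648). Krt2, the type II keratin of the upper epidermis, had 0.277, 3.38 and 0.414 CPM against 1.41 and 2.86 CPM, and Krt79, found in sebaceous ducts, had 1.78, 0.164 and 1.93 CPM against 0.105 and 0.890 CPM. In both, chlordecone 2 stood apart from chlordecone 1 and 3, on opposite sides, and the groups overlapped.

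The other squamous keratins, Krt1, Krt6a and Krt24, had at most 68 reads in any F1 library, and their groups overlapped. Genes of the cornified envelope, the cross-linked shell of squamous cells, summed to 22.5 to 43.4 CPM in F1 chlordecone libraries against 10.9 to 14.8 CPM in controls. Sprr1a held most of the excess in chlordecone 1 and 3, at 30.9, 0.654 and 12.9 CPM against 0.629 and 0.703 CPM (adjusted p = 0.285). In chlordecone 2, with a sum of 22.6 CPM, Sprr1a was at the level of the controls. Ivl was the most abundant member there, at 9.0 CPM against 3.41 and 2.53 CPM in controls. Of the 7 tested, 5 had positive and 2 negative log2 fold changes, and 0 passed.

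In F3 the 6 squamous keratins tested overlapped between groups. Krt4 had 2.87, 3.80 and 2.89 CPM in F3 chlordecone libraries against 3.08, 3.00 and 2.61 CPM in controls (log2 fold change 0.14, SE 0.21, adjusted p = 0.818), and Krt78 had 3.91, 3.47 and 3.98 CPM against 2.71, 2.98 and 4.26 CPM (log2 fold change 0.19, SE 0.23, adjusted p = 0.762). Krt10 had 1.01, 1.16 and 1.73 CPM against 1.26, 1.99 and 1.68 CPM (log2 fold change -0.34, SE 0.30, adjusted p = 0.678). Krt77 had 0.269, 0.198 and 0.443 CPM against 0.360, 0.495 and 0.324 CPM, Krt79 had 0.215, 0.325 and 0.189 CPM against 0.233, 0.622 and 0.257 CPM, and Krt1 had 61 to 72 reads against 45 to 105 reads. Cornified envelope genes summed to 7.92 to 10.3 CPM in F3 chlordecone libraries against 5.14 to 9.5 CPM in controls, with Sprr1a at 3.67, 2.63 and 2.86 CPM against 0.212, 0.693 and 0.332 CPM (log2 fold change 2.91, SE 0.43, adjusted p = 0.105).

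Hair and root sheath keratins were sparse, and in F1 they lay on both sides of the controls. Krt32, a type I hair keratin, had 204, 19 and 33 reads in F1 chlordecone 1, 2 and 3 and 0 reads in both controls, or 8.08, 1.04 and 1.52 CPM against 0 CPM. Against a floor of 3 reads per library the chlordecone mean was at least 23.8-fold higher (adjusted p = 0.201), and without chlordecone 1 at least 8.58-fold higher. Krt32 lies over Gm11571 on the other strand, and the labels do not say whether the counting used strand, so these reads cannot be assigned to Krt32 with certainty. Krt35, a type I hair keratin next to it, had 169, 4 and 40 reads against 0 and 8 reads, with chlordecone 2 between the controls (log2 fold change 3.90, SE 1.75, adjusted p = 0.448), and leaving out 1 library gave 2.95 to 8.96. Like Krt32, Krt35 met the count rule only through F1 chlordecone libraries, so its direction followed from how it was kept.

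Other hair and root sheath keratins had few reads in F1 chlordecone libraries. Krt26, a type I keratin of the inner root sheath, had 0, 0 and 1 read against 20 and 15 reads in controls (unadjusted p = 0.0204, adjusted p = 0.335). Krt27, of the same sheath, had 0, 4 and 0 reads against 15 and 25 reads (adjusted p = 0.505), and Krt86, a type II hair keratin, had 0, 0 and 13 reads against 29 and 29 reads (adjusted p = 0.618). Krt73, a type II keratin of the inner root sheath, had 15, 38 and 2 reads against 27 and 50 reads, and Krt88 had 11, 24 and 0 reads against 18 and 49 reads. Both overlapped between the groups in CPM. Krt34, Krt39, Krt75, Krt80 and Krt222 had at most 57 reads in any F1 library, and their groups overlapped.

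Hair shaft genes other than keratins were Tchh and Msx2 among those tested, with Tchh at 11, 26.2 and 13 CPM in F1 chlordecone libraries and 24.4 and 28.5 CPM in F1 controls (adjusted p = 0.584). The list summed to 12.6 to 28.8 CPM against 25.3 to 30.0 CPM in F1, and to 0.512 to 0.858 CPM against 0.736 to 1.05 CPM in F3. Of the hair keratins only Krt39 was tested in F3, at 79 to 112 reads in chlordecone libraries and 43 to 92 reads in controls (log2 fold change 0.56, SE 0.34, adjusted p = 0.561). Krt32 had 13, 0 and 5 reads in F3 chlordecone libraries and 4, 0 and 8 reads in F3 controls at the greater depth of F3. Krt26, Krt34 and Krt73 had no row of their name in the F3 table, nor did Krt24.

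Partner levels were set against each other within each library as ratios of CPM per kilobase, since a filament is built of both types. Krt8 over Krt18 was 1.23, 0.492 and 0.929 in F1 chlordecone 1, 2 and 3, against 0.386 and 0.503 in F1 controls, so that chlordecone 1 and 3 stood above the controls and chlordecone 2 between them. In F3 the ratio was 0.485, 0.404 and 0.446 in chlordecone libraries and 0.345, 0.459 and 0.442 in controls, overlapping. Krt18 was therefore the more abundant partner per kilobase in every library except F1 chlordecone 1.

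Krt5 over Krt14 was 2.25, 1.47 and 1.22 in F1 chlordecone libraries and 1.61 and 4.93 in F1 controls, the highest value resting on 16 Krt14 reads. In F3 it was 2.11, 1.71 and 1.66 in chlordecone libraries and 1.21, 1.73 and 1.53 in controls. Over all keratins kept, type II over type I was 0.452, 0.343 and 0.650 in F1 chlordecone libraries against 0.308 and 0.378 in controls, and 0.314, 0.264 and 0.288 in F3 chlordecone libraries against 0.228, 0.280 and 0.273 in controls. Type I transcripts exceeded type II transcripts in all 11 libraries, and the groups overlapped in both generations.

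**Figure D5:**
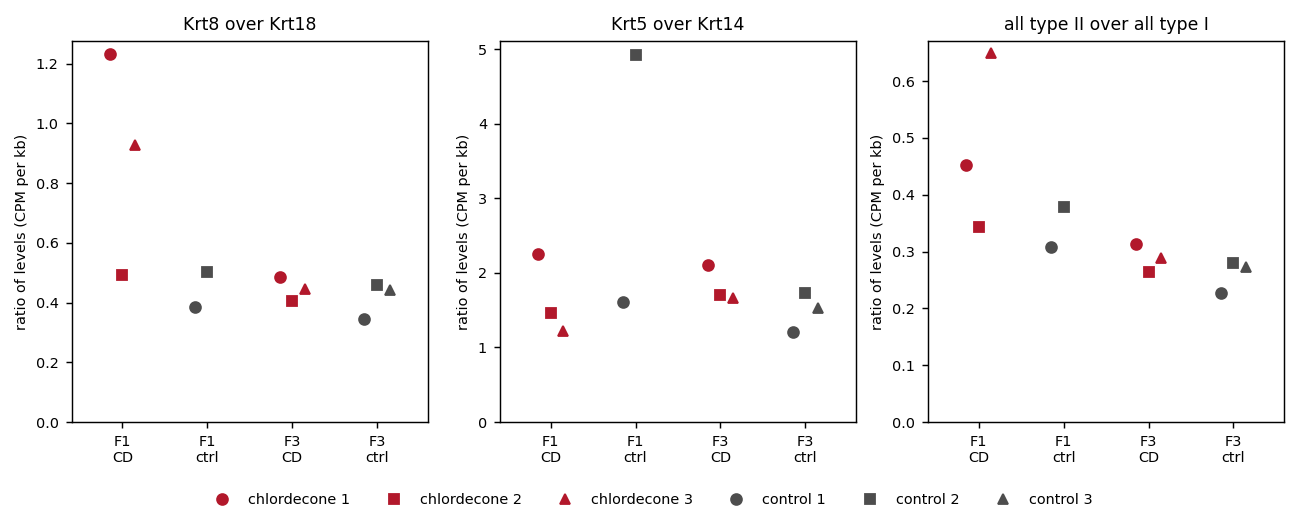
Points give, for each library, the ratio of a type II to a type I keratin level in CPM per kilobase, for Krt8 over Krt18, Krt5 over Krt14 and all type II over all type I, with chlordecone (CD) left of control (ctrl) in each generation. F1 chlordecone 1 and 3 have the highest Krt8 over Krt18 ratios, 1.23 and 0.929, and the F3 libraries stay between 0.345 and 0.485.

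The chlordecone effect was compared between generations as F3 minus F1 in 1 fit of all 11 libraries, in which 27 keratins were tested. Krt14 alone passed, 1 of 27 keratins, where 122 of 16980 genes did (0.718%, with 0.465% in the direction of Krt14). Its log2 fold changes, chlordecone over control, differed by -2.28 as F3 minus F1 (SE 0.42, unadjusted p = 0.000108, adjusted p = 0.0291). Krt14 averaged 25.8 ± 6.17 CPM in F3 chlordecone libraries and 22.3 ± 1.6 CPM in F3 controls (SD, n = 3 each), while in F1 it averaged 6.15 ± 1.4 CPM in chlordecone libraries (n = 3) and 1.06 ± 0.43 CPM in controls (n = 2). The call was lost with the replicate number as a block within each generation (log2 difference -2.12, adjusted p = 0.130). Leaving out 1 library at a time gave adjusted p from 0.0068 to 0.124, and the call was kept in 4 of the 11 fits, those without F1 control 1, F1 chlordecone 1, F1 chlordecone 2 or F3 control 1.

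Next by p-value were Krt7, with a log2 difference of -2.96 (SE 0.68, adjusted p = 0.0606), Krt4, with -4.12 (SE 1.05, adjusted p = 0.0782), and Krt5, with -1.17 (SE 0.34, adjusted p = 0.109). Krt15, the keratin with the smallest p in F3, had a log2 difference of -0.10 (SE 0.43, adjusted p = 0.929). At an unadjusted p under 0.05 there were 7 of 27 keratins, against 16.9% of all genes, and DESeq2 called 5, against 6.9% of all genes. The 7 include Krt20 and Krt32, which were kept only through F1 chlordecone libraries. The tables were made by different steps, so levels set side by side between generations are descriptions.

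The F1 count moved most with F1 chlordecone 2. Without it, 9 of 29 keratins passed the threshold, against 15% of all genes. Krt32, Krt7, Krt4, Krt14, Krt5, Krt20, Krt8 and Krt19 were higher, 8 of 29 against 9.61% of all genes, and Krt27 was lower. Krt20 and Krt32 were kept only through F1 chlordecone libraries, and Krt27 only through F1 controls. Leaving out any other F1 library gave 0 keratins. In the test of the difference between generations, leaving out F1 chlordecone 2 gave 8 keratins, again with Krt14. Chlordecone 2 had the lowest urothelial, vas deferens and mesothelial sums of the F1 chlordecone libraries, the mesothelial sums being 19.5, 8.02 and 47.4 CPM in chlordecone 1, 2 and 3 against 7.55 and 9.61 CPM in controls. Upk3b, at 7.36, 0.327 and 23.3 CPM in F1 chlordecone 1, 2 and 3, counts in both the urothelial and the mesothelial sum. Whether these tissues account for the keratin values was not tested.

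Keratin filaments are tied to desmosomes and to other filaments by linker proteins. Of 11 linker genes tested in F1, 8 had positive and 3 negative log2 fold changes (median 0.38) and 0 passed. Of all genes tested 51.4% were above 0, with a median of 0.02. Dsp, the desmoplakin that anchors keratins at desmosomes, had 60.2, 72.5 and 68.4 CPM in F1 chlordecone libraries and 67.5 and 69.7 CPM in controls. Plec, the cytolinker plectin, had 23.6, 18.8 and 15.1 CPM against 11.7 and 14.5 CPM, without overlap (log2 fold change 0.55, SE 0.31, adjusted p = 0.560).

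In F3 all 11 linker genes had positive log2 fold changes, where 48.8% of all genes did, and 0 passed. Their median was 0.13, beside -0.01 over all genes tested. Dsp had 203, 202 and 166 CPM in F3 chlordecone libraries against 181, 123 and 207 CPM in controls, and Jup, which encodes plakoglobin, had 128, 124 and 109 CPM against 130, 101 and 95.5 CPM. Both overlapped, and F3 control 2 was the lowest library for Dsp.

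Among the other intermediate filaments, 10 of 15 had positive log2 fold changes in F1, where 51.4% of all genes did, and 0 passed. Des, the desmin of muscle, had 1280, 897 and 705 CPM in F1 chlordecone libraries against 399 and 417 CPM in controls (log2 fold change 1.24, SE 0.36, adjusted p = 0.270), and Vim, the vimentin of mesenchymal cells, had 54.0, 57.7 and 55.5 CPM against 57.5 and 47.8 CPM. Smooth muscle genes summed to 4716 to 11912 CPM in F1 chlordecone libraries against 4014 to 4099 CPM in controls, all 8 with positive log2 fold changes and 0 past the threshold. In F3, 3 of 12 intermediate filament genes had positive values, where 48.8% of all genes did. Smooth muscle genes summed to 1613 to 2510 CPM against 1270 to 4256 CPM in F3, all 8 with negative log2 fold changes (median -0.48, beside -0.01 over all genes) and 0 past the threshold. Neuroendocrine genes summed to 9.03 to 22.1 CPM against 9.27 to 13.6 CPM in F1 and to 3.40 to 4.89 CPM against 3.07 to 6.21 CPM in F3, overlapping both times, as did mesothelial genes in F3 at 26.8 to 44.3 CPM against 12.3 to 80.0 CPM.

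Of 17 transcription factors known to act on keratin genes or epithelial identity, 9 had positive and 8 negative log2 fold changes in F1, and 0 passed. Gata3, a factor of luminal epithelium, had 1276, 1705 and 1629 CPM in F1 chlordecone libraries against 3163 and 3212 CPM in controls (log2 fold change -1.05, SE 0.33, adjusted p = 0.297), and Ehf, an epithelial ETS factor, had 155, 161 and 156 CPM against 263 and 221 CPM (adjusted p = 0.410). Neither overlapped. In F3, 8 of 15 had positive values and 0 passed, with Gata3 at 326, 276 and 285 CPM against 390, 341 and 337 CPM (log2 fold change -0.27, SE 0.13, adjusted p = 0.5) and Ehf overlapping.

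Of 10 luminal genes other than keratins tested in F1, 9 had negative log2 fold changes and 1 a positive one, where 51.4% of all genes were above 0. The median was -0.57 and 0 passed the threshold. Cd24a and Dpp4, among the 9, overlapped between the groups. Hoxb13, a prostate homeobox factor, had 114, 100 and 93.1 CPM in F1 chlordecone libraries against 168 and 182 CPM in controls (log2 fold change -0.77, SE 0.25, adjusted p = 0.309), and Epcam, a surface protein of epithelial cells, had 185, 144 and 193 CPM against 233 and 270 CPM (adjusted p = 0.519). In F3, 8 of 10 luminal genes had positive values, where 48.8% of all genes did, with a median of 0.15, and Epcam and Hoxb13 overlapped between the groups.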

How the data were processed

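Prostate messenger RNA was sequenced with stranded poly-A libraries, per the labels' protocols. The authors deposited 1 table per generation holding raw read counts per Ensembl gene. Beside the counts the authors deposited a log2 fold change of their own, its p-value and an adjusted p. The submitters' processing notes name TopHat2 2.0.14, Bowtie2 2.1.0, HTSeq 0.6.1, DESeq2 1.6.3, bcl2fastq 2.17.1.14 and the mm10 build. No annotation release or strand setting is named there. Column heads C and K were taken as control and chlordecone (kepone), and 0 columns belonged to other samples. The lowest total count of a gene was 20 in the F1 table and 1 in the F3 table, so the tables were filtered differently.

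Counts were tested with edgeR 4.0.16 (R 4.3.3): filterByExpr with a minimum count of 10 and a minimum total of 15, TMM scaling, and the two-sided quasi-likelihood F test within each generation, with Benjamini-Hochberg adjustment over all genes tested and a threshold of 0.05. The difference between generations was an interaction in 1 fit over the 17039 genes in both tables. CPM uses TMM-scaled library sizes, and values per kilobase use the longest protein-coding transcript in GENCODE M21. Gene start and end equalled those of GENCODE M21 for 2.11% of identifiers and 0 keratins in F1. In F3 they did so for 78.9% of identifiers and 16 keratins. Transcript lengths and gene overlaps given for F1 thus come from an annotation that its coordinates do not match. Library ratios were taken as log2 of CPM + 0.5, and the floor of 3 reads covers counting error only. The edgeR test was checked on simulated counts. The row with the Ensembl identifier of Krt88 carries another name in the F3 table and was matched by identifier.

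Alternatives were the Wald test of DESeq2 1.42.0, its size factors, other filters (none, or a 1 CPM mean), a replicate block, all libraries in 1 fit, and leaving out each library. Deviations from the group mean were correlated between same-numbered samples. In F1 the correlations were 0.047 and 0.050, but 2 nearly alike controls leave little to correlate, so pairing there could not be judged. Same-numbered F3 samples deviated together (correlations 0.257, 0.231 and 0.179). Differently numbered samples were not correlated, so these values cannot decide whether the numbers pair the F3 samples. By chi-square per gene, F3 control 1 was nearest to chlordecone 2 (142) among the F3 chlordecone libraries. F3 controls 2 and 3 were both nearest to chlordecone 3 (155 and 147). The main F3 test and the test of the difference were fitted without pairs, so their SE and p ignore any such pairing. With the replicate block 0 keratins passed in F3, and the Krt14 call of the difference was lost.

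All simple and basal keratins averaging at least 1 CPM in either table, the 10 other keratins of highest mean CPM and every keratin past the threshold are given library by library, and other keratins by count or range. Of other lists, members past the threshold and otherwise up to 4 of highest mean are named. The members and lists were chosen with earlier results of these data known. Gene lists cover linkers, other intermediate filaments, regulators, basal, luminal, urothelial, mesothelial, neuroendocrine and smooth muscle cells, prostate products, seminal vesicle, vas deferens and epididymis, cornified envelope and hair shaft.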

Additional observations from a re-analysis of the deposited data

Results flagged for a closer look

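Krt14, the type I basal keratin, is flagged because its chlordecone effect differed between the generations by the test of the difference itself. The log2 difference was -2.28, F3 minus F1 (adjusted p = 0.0291, edgeR's quasi-likelihood interaction test). In F3 its log2 fold change was 0.21, with 2 of 3 chlordecone libraries above all controls, and in F1 it was 2.54, with 3 of 3 chlordecone libraries above both controls. The F1 control values rest on 26 and 16 reads. With the replicate block the adjusted p was 0.130, and leaving out 1 library kept the call in 4 of 11 fits, with adjusted p up to 0.124.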

How the results depend on the processing

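In F1, where 5 genes and 0 keratins passed, the counts were 21 genes without a filter, 700 genes and 5 keratins with DESeq2, 930 genes and 5 keratins in 1 fit of all libraries, and 223 genes and 2 keratins with a replicate block, though F1 samples share only a number. In F3 the 10 genes became 38 without a filter, 230 with DESeq2 and 2 in 1 fit of all libraries, and the replicate block changed no keratin call there. For the difference between generations the 122 genes and 1 keratin became 1150 and 5 with DESeq2, and 29 and 0 with the replicate block. With a mean of at least 1 CPM the F1 basal median was 1.69 and the F3 squamous median was 0.13. Why these values moved was not tested. Leaving out 1 library gave 0 to 2604 genes and 0 to 9 keratins in F1, 7 to 41 genes in F3, and 27 to 2320 genes and 0 to 8 keratins for the difference. The F1 medians then ran from 0.34 to 1.83 (simple), 0.97 to 1.92 (basal) and -0.50 to 0.46 (squamous), and the F3 squamous median from -0.45 to -0.034. Signs turned for Krt17 in F1 with the block (0.40) and for Krt8 in F3 without a filter (0.0078), with DESeq2 (0.0053) and in 1 fit of all libraries (0.045). With 1 library left out, ranges crossed 0 for F1 Krt17 (-1.01 to 1.68), Krt10 (-0.20 to 0.023) and Krt18 (-0.29 to 0.11), for F3 Krt7 (-0.45 to 0.078), Krt8 (-0.059 to 0.075) and Krt4 (-0.0052 to 0.21), and for the difference of Krt15 (-0.38 to 0.38), Krt17 (-2.07 to 0.64), Krt18 (-0.10 to 0.26) and Krt2 (-1.13 to 1.5). Depth limits the F1 hair keratins, where 3 reads are 0.119 to 0.164 CPM.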
